A study of Mus musculus with 10 samples.

Results

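The genes of voltage-gated calcium and sodium channel subunits were picked by symbol (Cacna1, Cacna2d, Cacnb, Cacng and Scn with a letter or number, not the epithelial Scnn genes), so no measured value chose them. In lists of open chromatin from mouse cochlea at 3 postnatal ages, overlapping peaks (1 bp or more) were joined across ages into regions, and a region belonged to the nearest mm10 protein-coding gene within 100 kb. Over all annotated protein-coding genes, which are shorter (median 17.2 kb against 104 kb for channel genes), 15756 of 21883 had a region. Of the 40 genes with such a symbol in the annotation, 39 had at least 1 region. The exception was Cacna1f, the calcium channel gene of photoreceptors, with no region at any age. Together they held 211 of the 59255 regions that had a gene within 100 kb, and of 64911 regions in all. Calcium channel genes held 166 regions at 25 genes and sodium channel genes 45 regions at 14 genes.

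Voltage-gated channels turn a change in membrane voltage into calcium entry or an action potential. A calcium channel is built on a pore-forming alpha1 subunit (Cacna1 genes), with an alpha2delta subunit outside the cell (Cacna2d genes) and a beta subunit inside it (Cacnb genes) that bring it to the membrane and tune its gating. Some Cacng genes encode gamma subunits of the muscle calcium channel, and others encode partners of AMPA-type glutamate receptors. A sodium channel has a pore-forming alpha subunit (Scn genes ending in a) and beta subunits that also act in cell adhesion (Scn genes ending in b). In the cochlea, calcium entry through the channel encoded by Cacna1d drives transmitter release from inner hair cells, and sodium channels carry the action potentials of spiral ganglion neurons.

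The mice were CD1, an outbred stock, taken 2, 5 or 8 days after birth (P2, 3 animals; P5, 3 animals; P8, 4 animals), with no treatment or mutant allele given. The study looked for regulatory elements relevant in development, within work on delivering GJB2 to the cochlea. Nuclei of both cochleae of an animal were purified together, with no sort for a cell type, and assayed by Omni-ATAC. In this assay a transposase inserts adapters where chromatin is open, and a peak marks such a stretch.

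One peak list without read counts was deposited for each age, so the spread between animals is not known and no p-value was computed. Fewer cells of a type and less open chromatin per cell cannot be told apart in whole tissue. The lists hold 52085, 47683 and 43878 peaks at P2, P5 and P8, and the counts below are not corrected for list length unless stated. Counts or values given in threes are for P2, P5 and P8 in that order. All 8 hair cell markers and 6 of 7 spiral ganglion markers had a region, with Prph at 0, and all 6 skeletal muscle and all 6 brain markers had one too. So did 15756 of all 21883 protein-coding genes, so a region at a marker does not show that its cell type was present. Hair cell markers had 17, 13 and 11 regions, spiral ganglion markers 30, 23 and 20, Schwann cell markers 28, 17 and 17, muscle markers 12, 7 and 5, and brain markers 17, 11 and 12. Supporting cell markers had 33, 31 and 29, stria vascularis markers 37, 28 and 24, and endothelium markers 16, 10 and 13. Bone markers had more regions at P8 than at P2, with 8, 10 and 16, and so did macrophage markers, with 4, 7 and 6. The part of these cell types in the results on channel genes was not tested.

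The annotated transcription starts show where the channel genes were open. RefSeq promoters of assembly GRCm38.p6, the mm10 build, matched 30 of the 40 genes with 41 starts, each running from 250 bases before the start to 50 after it. A peak overlapped 14, 12 and 12 of these promoters, and 11 did so at all ages. The share open at all ages was 26.8% (Wilson 95% interval 15.7 to 41.9), against 45.8% of the 21262 promoters of all protein-coding genes. At 16 of the 30 genes no annotated promoter overlapped a peak at any age, among them Cacna1c, Cacna1e, Scn1a and Scn10a. At the other 14 genes at least 1 promoter did, against 9786 of the 17491 protein-coding genes with a promoter. A peak can lie just outside a promoter, so these 16 genes were not all without open chromatin near a start. Among them, regions called at all ages had their middle 217 bp from an end of Cacng2, 126 bp from one of Cacng7 and 820 bp from one of Cacng3.

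Where a gene has several starts, often only some were open. Cacna1d was open at the start inside the gene and not at the outermost one. Scn2a, which encodes a sodium channel of unmyelinated axons and of axon initial segments, was likewise open only at its inner start. Cacnb2, whose product is the main calcium channel beta subunit of inner hair cells, and Scn8a, the sodium channel gene of nodes of Ranvier, were open at the outer of their 2 starts. Cacnb4 was open at 2 of 3 starts, covered by 1 peak, and Cacnb3 at both of its starts. For Cacnb1 the peak at the outer start was given to the neighbouring gene Rpl19, so it is not among the 211 regions.

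The 250 bases before the open start are shown for 6 genes, since these are the bases at the peaks the promoter results rest on. Capitals mark every match to the GC box GGGCGG, the E box CAGCTG and the TATA box TATAAA on either strand, and overlapping matches run together. They run 5′ to 3′ toward the start, on the strand of the gene.
Cacna1d (chr14:30353487-30353736, minus strand): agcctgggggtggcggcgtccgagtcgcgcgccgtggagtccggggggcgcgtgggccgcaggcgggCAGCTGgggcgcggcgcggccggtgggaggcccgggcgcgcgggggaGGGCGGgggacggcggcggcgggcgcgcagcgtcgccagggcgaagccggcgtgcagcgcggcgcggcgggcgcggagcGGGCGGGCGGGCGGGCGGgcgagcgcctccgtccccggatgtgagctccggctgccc
Cacna2d3 (chr14:29721865-29722114, minus strand): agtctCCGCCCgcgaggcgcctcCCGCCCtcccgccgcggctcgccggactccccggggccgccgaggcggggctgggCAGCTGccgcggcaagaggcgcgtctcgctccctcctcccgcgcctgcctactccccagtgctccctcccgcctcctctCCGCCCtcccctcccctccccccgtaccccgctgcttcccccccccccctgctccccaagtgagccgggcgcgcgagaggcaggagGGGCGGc
Cacnb2 (chr2:14604056-14604305, plus strand): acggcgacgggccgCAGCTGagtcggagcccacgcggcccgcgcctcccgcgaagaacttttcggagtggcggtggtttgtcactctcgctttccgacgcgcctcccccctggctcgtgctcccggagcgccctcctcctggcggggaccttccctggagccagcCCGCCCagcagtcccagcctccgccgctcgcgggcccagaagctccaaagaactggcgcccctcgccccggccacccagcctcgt
Cacna2d2 (chr9:107399630-107399879, plus strand): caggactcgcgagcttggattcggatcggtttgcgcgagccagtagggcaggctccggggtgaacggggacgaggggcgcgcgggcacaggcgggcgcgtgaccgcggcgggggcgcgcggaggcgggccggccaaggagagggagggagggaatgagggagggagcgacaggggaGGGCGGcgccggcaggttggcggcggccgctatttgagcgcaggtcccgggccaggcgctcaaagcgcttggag
Scn8a (chr15:100870395-100870644, plus strand): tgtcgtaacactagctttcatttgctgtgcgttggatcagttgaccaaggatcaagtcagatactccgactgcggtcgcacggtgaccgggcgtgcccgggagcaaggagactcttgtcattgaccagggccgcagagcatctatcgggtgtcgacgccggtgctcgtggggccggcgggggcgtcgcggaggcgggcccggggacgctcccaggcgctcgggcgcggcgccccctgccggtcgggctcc
Scn2a (chr2:65668436-65668685, plus strand): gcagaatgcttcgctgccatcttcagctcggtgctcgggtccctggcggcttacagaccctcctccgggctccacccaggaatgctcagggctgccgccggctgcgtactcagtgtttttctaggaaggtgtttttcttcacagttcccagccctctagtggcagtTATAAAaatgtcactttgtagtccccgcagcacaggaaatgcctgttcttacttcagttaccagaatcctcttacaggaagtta

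The bases before the open inner start of Scn2a held 53.2% G and C, against 86.4% at Cacna1d, 80.0% at Cacna2d3, 74.4% at Cacna2d2, 73.2% at Cacnb2 and 68.0% at Scn8a. Open promoters not shown spread widely. The lowest were 38.4% at Scn2b, 54.4% at Scn9a and 56.0% at the outer Cacnb3 start, and the others ran from 62.0% at Cacng5 to 82.4% at Cacna2d1. The Scn2a sequence holds 1 TATAAA and no GGGCGG. The motif GGGCGG occurred 5 times, counting overlaps, before the Cacna1d start, 4 times at Cacna2d3, once each at Cacna2d2 and Cacnb2, and not at all at Scn8a. CAGCTG occurred once each at Cacna1d, Cacna2d3 and Cacnb2. Over the 250 bases, GGGCGG was in 15 of the 41 channel promoters (36.6%), against 42.6% of all promoters, and CAGCTG in 11 (26.8%), against 12.1%. TATAAA was in 2 (4.88%, against 11.6%), CCAAT in 10 (24.4%, against 35.4%), TGACTCA in 1 (2.44%, against 4.06%) and CACGTG in 0 (against 6.63%). Searches covered both strands, and a match is letters only and does not show binding. The median G and C content was 70.8% for the 16 channel promoters with a peak at any age and 52.8% for the 25 without, against 61.2% and 48.4% over all promoters. These are properties of annotated starts, several of which share a gene.

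How high a promoter peak stood is given as its percentile within its own list, with 100 at the top, because the authors' ranking values cannot be compared between lists. The Scn2a peak was the highest of these promoters, at percentiles 82.5, 93.4 and 87.9 at P2, P5 and P8. Cacna2d2, the gene of an alpha2delta subunit, had 77.6, 65.7 and 63.3. Scn8a had 70.0, 54.9 and 50.4. Percentiles of lists of unequal length show where a peak stood in each list and not a change. The inner Cacna1d start had 36.3, 20.1 and 2.18, so at P8 it was among the weakest peaks of the list. Cacnb2 had 63.6, 42.8 and 41.3, and the Cacnb4 peak 62.5, 30.6 and 40.5. Cacna2d1 had 57.3, 41.0 and 56.7.

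**Figure D1:**
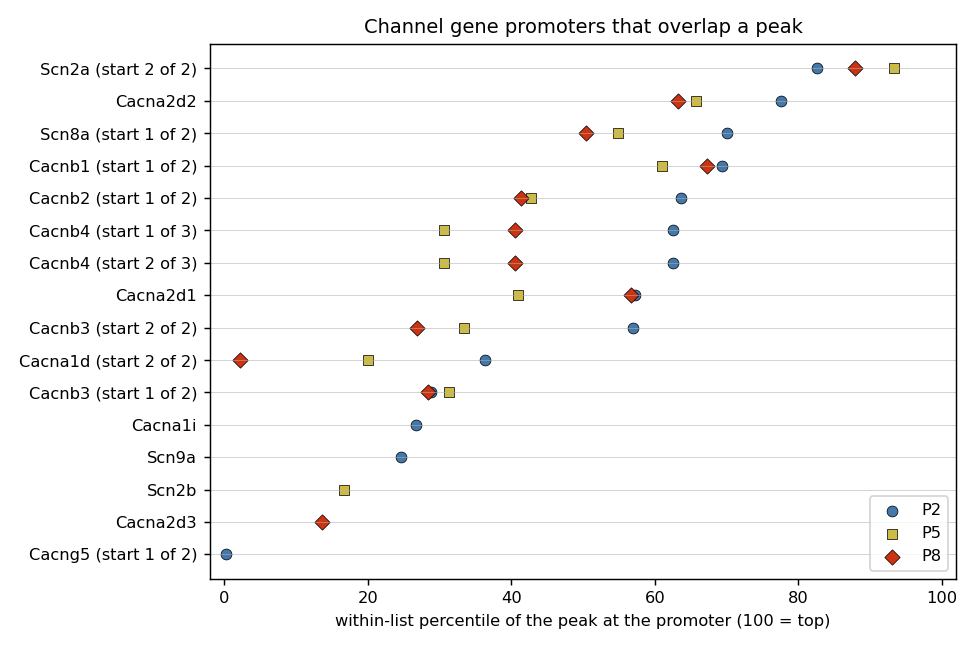
Within-list percentile (100 at the top of an age's list) of the peak at each channel gene promoter that overlaps a peak, with circles for P2, squares for P5 and diamonds for P8, and a missing marker where no peak was called. The Scn2a inner start stays between 82.5 and 93.4, while the Cacna1d inner start is at 36.3, 20.1 and 2.18.

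Promoters open at a single age all had low percentiles. Those of Cacna1i, a T-type calcium channel gene, and Scn9a, a sodium channel gene of pain-sensing neurons, were open only at P2, at percentiles 26.8 and 24.6, and that of Cacng5 at 0.307. The Scn2b promoter was open only at P5 (16.6). The Cacna2d3 promoter shown above was overlapped only by the P8 peak (13.6). A P2 peak at percentile 38.1 lies beside that promoter and overlaps the P8 peak, so both fall in 1 region at 29721952 to 29722835 and count as kept.

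Most channel gene regions lay away from gene ends. Inside the gene were 170 of 211 (80.6%, 74.7 to 85.3), against 67.1% of all assigned regions, and within 1 kb of an end of any protein-coding gene were 26 (12.3%, 8.55 to 17.4), against 21.9%. Channel genes are long, with a median of 104 kb against 17.2 kb for all protein-coding genes. Over their whole length they held 2.74 inside regions per 100 kb, against 3.78 over all genes. Among genes of at least 100 kb the difference was small, with 2.46 regions per 100 kb for 20 channel genes and 2.69 for all 2428 genes. Cacnb1, Cacnb2, Cacnb3 and Cacnb4 held all of their 21 regions inside the gene, and the Cacna1 genes 69 of 77. The Cacng genes held only 10 of 21 inside, and all 4 regions of Cacng6 and all 3 of Cacng3 lay outside.

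Few regions of channel genes stood high in the lists. The median within-list percentile was 37.0, 38.3 and 35.5, against 51.3, 51.4 and 51.2 for all assigned regions. Away from gene ends (over 1 kb) the medians were 36.3, 36.9 and 29.9 against 42.2, 42.3 and 41.5. At or above percentile 90 were 3, 3 and 2 regions (1.78%, 2.19% and 1.72%), against 10.8%, 10.9% and 10.8% of all assigned regions. Cacng2, the gene of an AMPA receptor partner known as stargazin, had such a region at all ages, at 95.5, 94.5 and 92.3, on chromosome 15 at 78119754 to 78120253. A region inside Cacna1d at 30479336 to 30479840 stood at 97.6, 97.3 and 95.9. Its middle lies 101 bp from an end of Dcp1a, an mRNA decapping gene that overlaps Cacna1d, so the peak cannot be ascribed to Cacna1d rather than Dcp1a. The others were a region of Cacna1a at its higher-coordinate end at P2 (92.8) and the Scn2a inner start at P5 (93.4).

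Away from gene ends, among regions open at all ages, the highest was the Scn2a inner start. Next came a region inside Cacna2d2, 17556 bp from its nearer end, on chromosome 9 at 107417040 to 107417539, with 79.5, 81.2 and 83.5. A region 2981 bp outside Cacna1i on chromosome 15, at 80401273 to 80401771, had 81.6, 81.1 and 73.0. Cacna1e, which encodes the R-type calcium channel, had one at 154603482 to 154603988 on chromosome 1, at 64.0, 85.0 and 80.9. Cacna1a, which encodes the P/Q-type channel of synapses, had one at 84357699 to 84358203 on chromosome 8, at 80.7, 71.7 and 76.6. These 5 regions stood at 64.0 or above at every age, but they were not the only ones. A region inside Cacna2d3 at 29090022 to 29090532 had 74.7, 74.8 and 70.3. The order given is not that of any single age, and at P2 a region of Cacna1g stood higher than all 5 (84.4).

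Channel gene regions were called at fewer ages than regions overall. The counts called were 169, 137 and 116, and P8 had 68.6% as many as P2, against 84.3% for all assigned regions. Of the 211 regions, 79 (37.4%, 31.2 to 44.1) were open at all ages, against 51.9% of all assigned regions. Regions called only at P2 numbered 53 (25.1%, 19.7 to 31.4, against 15.8%), and those called at P2 and P5 but not P8 numbered 30 (14.2%, 10.1 to 19.6, against 10.0%). The other patterns were rarer, with 12 at P5 alone (5.69%, against 5.84%), 16 at P5 and P8 (7.58%, against 5.78%), 14 at P8 alone (6.64%, against 7.19%) and 7 at P2 and P8 without P5 (3.32%, against 3.53%).

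**Figure D2:**
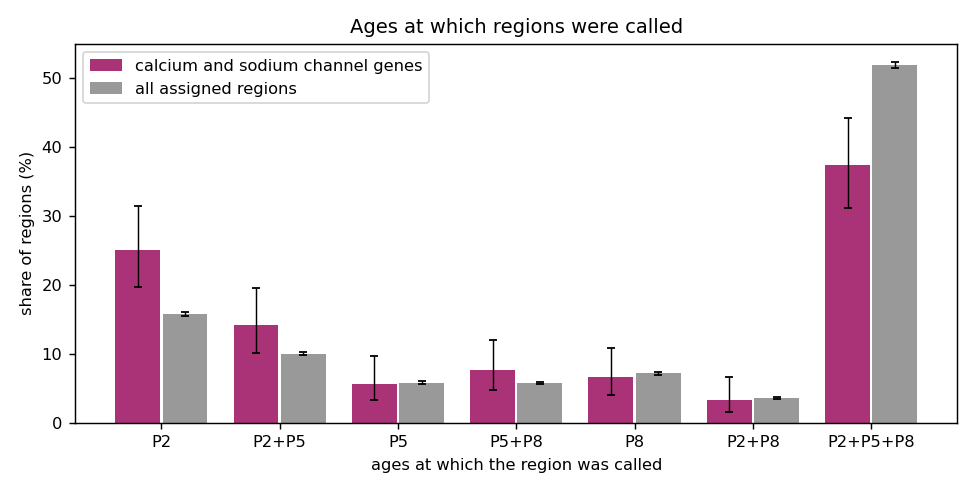
Share of regions (%) by the ages at which they were called, for the 211 regions of calcium and sodium channel genes and for all 59255 assigned regions. Error bars are Wilson 95% intervals, which cover counting error only. Channel gene regions had 25.1% at P2 alone and 37.4% at all ages, against 15.8% and 51.9%.

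A region is called lost where it is in the earlier list and not in the later one, and gained in the opposite case. Between P8 and P2, 83 of the 169 P2 regions of channel genes were lost (49.1%, 41.7 to 56.6), against 31.7% of all assigned P2 regions. Gained were 30 of the 116 P8 regions (25.9%, 18.8 to 34.5), against 19% of all assigned P8 regions, and that interval reaches the background. At P5 against P2, 60 were lost (35.5%, 28.7 to 43.0, against 23.8%) and 28 of 137 gained (20.4%, 14.5 to 28.0, against 15.8%). At P8 against P5, 42 were lost (30.7%, 23.6 to 38.8, against 21.5%) and 21 gained (18.1%, 12.2 to 26.1, against 15.7%). Called at P5 were 30 of the 83 lost regions (36.1%, against 38.8% of all lost regions) and 16 of the 30 gained ones (53.3%, against 44.5%). Wilson intervals cover counting error only, and regions of 1 gene are not independent, so they understate the uncertainty. At equal list length the lost share at P8 against P2 was 38.5%, against 24.1% of all, and among P2 regions in the upper 50% of their list it was 12.1%, against 7.53%.

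Lost and gained regions ranked low, as they did over all genes. Lost regions of channel genes had a median percentile of 21.3 at P2, with 7 of 83 in the upper 50% of the list, against 23.2 and 1858 of 15260 for all lost regions. Gained regions had a median of 19.5 at P8, with 2 of 30 in the upper 50%, against 20.8 and 883 of 7687 for all gained regions. Regions of channel genes called at both ages had a median of 41.5 at P8 and 57.1 at P2, and all such regions 59.8 and 66.5. The median of kept regions was thus lower at P8 over all genes too, but percentiles of lists of unequal length do not show a change. Single kept regions could stand higher at P8, as 1 of Cacna1c did (41.2 at P2 and 69.3 at P8). With the P2 list cut into 3 equal bands by rank, channel genes lost 59 of 75 in the bottom band (78.7%, 68.1 to 86.4), against 66.0% of all assigned regions. In the middle band they lost 22 of 62 (35.5%, 24.7 to 47.9, against 29.2%) and in the top band 2 of 32 (6.25%, 1.73 to 20.1, against 2.33%). More than 1 kb from any end, 77 of 147 were lost (52.4%, 44.4 to 60.3, against 38.1%), and within 1 kb 6 of 22 (27.3%, 13.2 to 48.2, against 13.3%). Inside genes of at least 100 kb the share was 48.6% (39.3 to 58.0), against 37.8%. Gains by band, at 41.1%, 14.3% and 5.56% from bottom to top, lay near the 41.4%, 15.3% and 1.48% of all assigned regions. A peak of the other age within 1 kb was rare, at 2 of 83 lost and 1 of 30 gained regions.

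**Figure D3:**
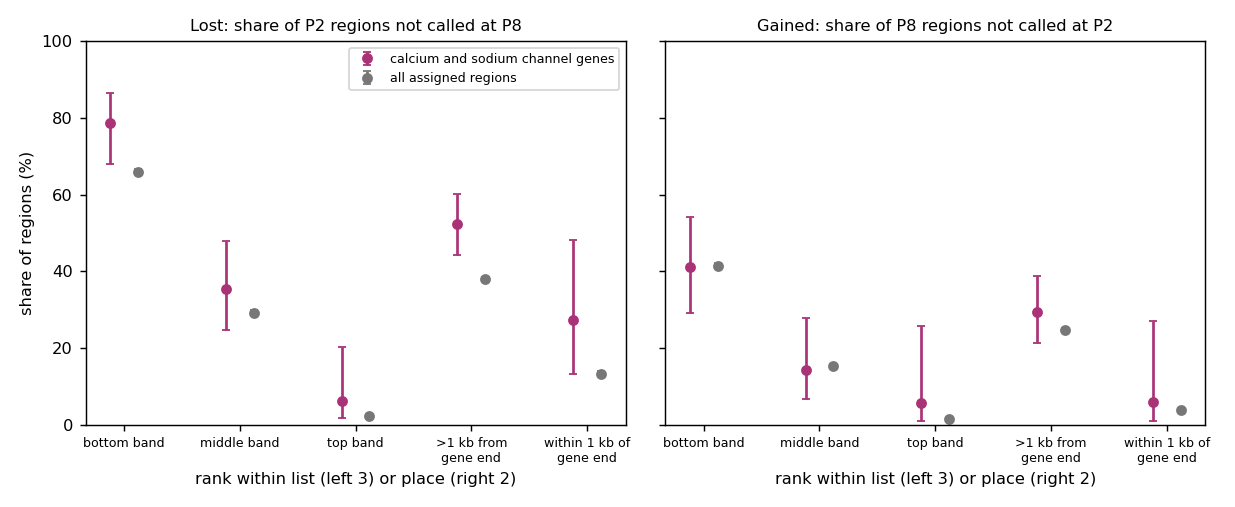
Share of regions (%) lost (left, of P2 regions) and gained (right, of P8 regions) in 3 equal rank bands of the list and by distance from a gene end, for channel genes and for all assigned regions, with Wilson 95% intervals. Losses of channel genes stand at 78.7%, 35.5% and 6.25% from the bottom to the top band, against 66.0%, 29.2% and 2.33%.

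Other channel and receptor families had similar shares. Potassium channel genes (Kcn symbols, 85 genes with regions) lost 144 of 312 P2 regions (46.2%, 40.7 to 51.7), and glutamate and GABA receptor genes (39 genes) lost 71 of 143 (49.7%, 41.6 to 57.7). Their gains were 26.0% and 20.0% of P8 regions. Over all assigned regions 31.7% were lost and 19% gained. No difference from these families was tested. Sodium channel genes alone lost 20 of 37 (54.1%, 38.4 to 69.0) and calcium channel genes 63 of 132 (47.7%, 39.4 to 56.2).

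By gene, 23 of the 39 had a net loss at P8 against P2, 6 a net gain and 10 neither. Over all 15756 genes with regions, 38.3% had a net loss, 13.9% a net gain and 47.8% neither, and a gene with many regions has more chance of either. The median net gain, which is gained minus lost regions, was -1 for channel genes and 0 over all genes. These counts depend on list length. At equal list length net gain rose for 17 channel genes and turned from a loss to a gain for Cacna1c. Cacna1s, Cacna2d3 and Scn4a went from 0 to 1, so fewer genes had a net loss and more a net gain. The beta subunit genes had 6 gained and 4 lost regions, the only class with more gained than lost. Their lost share was 28.6% (11.7 to 54.6) and their gained share 37.5% (18.5 to 61.4), and both intervals hold the share of all assigned regions. Differences between classes were not tested. Cacna1 genes had 9 gained and 32 lost, Cacna2d genes 8 and 18, Cacng genes 3 and 9, sodium channel alpha genes 3 and 16, and sodium channel beta genes 1 and 4.

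**Figure D4:**
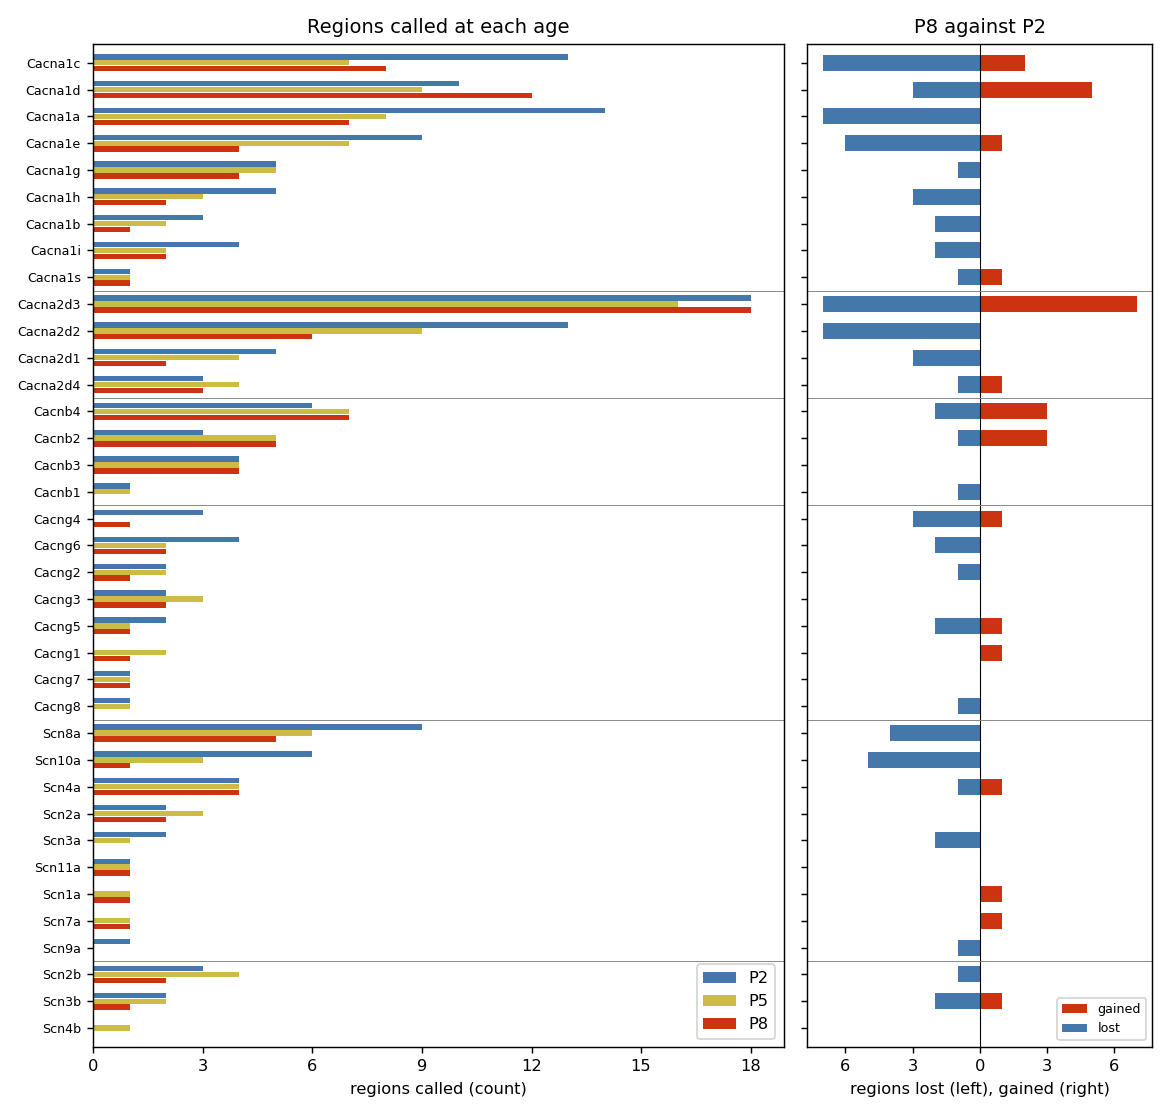
Regions called at P2, P5 and P8 for the channel genes reported by name (left, count), and regions gained and lost at P8 against P2 (right, count), with lines between the subunit classes. Cacna1a and Cacna2d2 lost 7 and gained 0, while Cacna1d gained 5 and lost 3.

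Among the pore-forming calcium channel genes, Cacna1d was the one with a net gain. It lies on chromosome 14 at 30039941 to 30491156 and had 10, 9 and 12 regions, with 5 gained and 3 lost. By nearest gene end in place of gene body its net gain of 2 became -1. All 15 of its regions lie nearer to an end of Chdh or Dcp1a than to one of Cacna1d, so the -1 comes from other regions. From the first to the last of the 5 gained regions is a stretch of 151 kb at 30164163 to 30315239, with 0 lost regions and 1 kept. The stretch was drawn around the gained regions, and whether they cluster was not tested. The highest gained region, at 30218041 to 30218539, was called only at P8, at percentile 49.3. The 3 others called at P8 alone stood at 21.8, 14.8 and 36.2, and the region at 30314740 to 30315239 was called at P5 as well (14.9 and 15.1). The kept region between them, at 30284435 to 30284937, had 16.0, 57.2 and 37.5. The 3 lost regions stood at 32.3, 1.69 and 23.1 at P2.

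Cacna1a had the reverse balance. On chromosome 8 at 84338631 to 84640251, it had 14, 8 and 7 regions, with 0 gained and 7 lost, and 6 of its P2 regions were not called at P5. The lost ones stood at percentiles from 5.14 to 33.9 at P2. Its net gain was -4 in place of -7 at equal list length. Its highest region, at 84639308 to 84639807 and 694 bp from the gene's higher-coordinate end, had 92.8, 87.5 and 81.8.

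Cacna1c, which encodes the L-type channel of heart, smooth muscle and brain, had 13, 7 and 8 regions, with 2 gained and 7 lost. On chromosome 6 at 118587240 to 119197384, 4 of its 16 regions were open at all ages. Its highest lost region was at 118791788 to 118792286, at 65.2 in the P2 list and 32.3 in the P5 list. Close by, the region at 118795720 to 118796227 had 41.2, 53.9 and 69.3. Its open region at 119108862 to 119109585 starts just beyond the annotated promoter at 119108446 to 119108745, which no peak overlapped. At equal list length Cacna1c had a net gain of 1 in place of -5. By nearest gene end it was -2, and many of its regions lie nearer to an end of Dcp1b.

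Cacna1e, on chromosome 1 at 154390806 to 154884785, had 9, 7 and 4 regions, with 1 gained and 6 lost. Its lost regions stood at 31.1, 37.0, 32.5, 20.1, 36.6 and 7.39 at P2, and its gained one at 8.18 at P8. The T-type genes had 5, 5 and 4 at Cacna1g, 5, 3 and 2 at Cacna1h, and 4, 2 and 2 at Cacna1i. Cacna1b, the N-type channel gene, had 3, 2 and 1, and its region at 24761837 to 24762340 on chromosome 2 was the one kept (73.5, 66.7 and 57.4). Cacna1s, the channel gene of skeletal muscle, had 1 region at each age but not the same one at P8 as at P2.

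**Figure D5:**
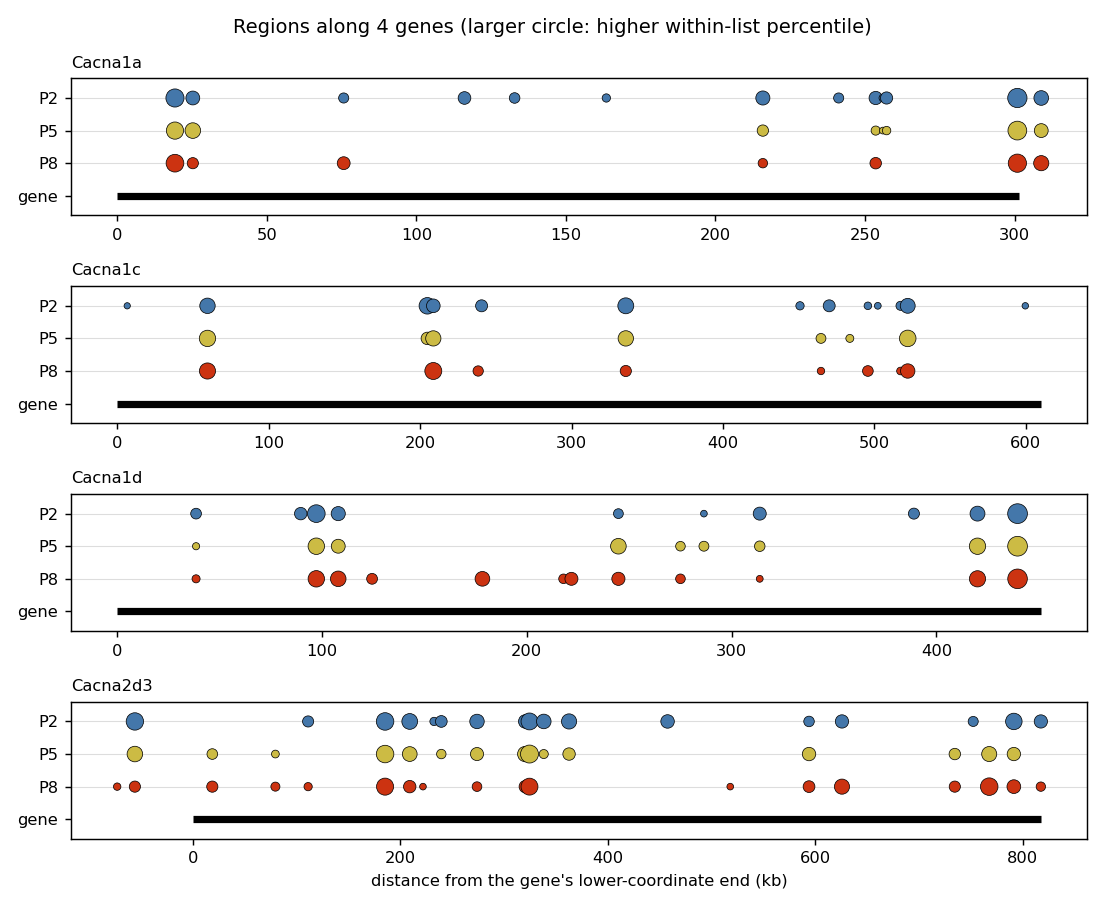
Regions called at P2, P5 and P8 along Cacna1a, Cacna1c, Cacna1d and Cacna2d3, by distance in kb from the gene's lower-coordinate end, with the gene as a black bar and larger circles for higher within-list percentiles. The 4 Cacna1d regions called only at P8 lie between 124 and 222 kb, and Cacna1a has 7 P2 regions with no P8 partner.

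Of the alpha2delta genes, Cacna2d3 had the most regions of any channel gene and the most gained and lost regions together. Mice without it have altered processing of sound in the auditory brainstem. On chromosome 14 at 28904943 to 29722775, it had 18, 16 and 18 regions, with 7 gained, 7 lost and 8 open at all ages. Many of its regions lie nearer to an end of Lrtm1, and by nearest gene end its net gain was 3 in place of 0. One gained region, at 29672377 to 29672879, was the highest gained region of all channel genes, called at P5 (52.3) and P8 (74.7) and not at P2. Cacna2d2, on chromosome 9 at 107399733 to 107529346, had 13, 9 and 6 regions, with 0 gained and 7 lost, and 4 of the lost ones were not called at P5. Its net gain was -4 in place of -7 at equal list length. Cacna2d1 had 5, 4 and 2, and its region 95686 bp outside the gene at 15838074 to 15838578 on chromosome 5 was its highest (71.4, 69.1 and 75.8). Cacna2d4 had 3, 4 and 3.

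Beta subunit genes had at least as many regions at P8 as at P2, with Cacnb1 (1, 1 and 0) as the exception. Cacnb2, on chromosome 2 at 14603861 to 14988811, had 3, 5 and 5, with 3 gained and 1 lost. Besides its promoter, the region at 14917507 to 14918047 was open at all ages (37.0, 62.5 and 48.5). Its gained regions stood at 29.2, 4.47 and 11.0 at P8, so they were among the weaker peaks. Cacnb4, on chromosome 2 at 52428320 to 52676609, had 6, 7 and 7, with 3 gained and 2 lost. Its regions at 52578853 to 52579358 (37.7, 74.5 and 71.1) and at 52590824 to 52591335 (39.4, 50.7 and 63.5) were open at all ages. The Cacnb4 region at 52433295 to 52433798 was lost (58.5 at P2 and 36.9 at P5). The region gained between the kept ones, at 52580596 to 52581179, was absent at P2 and had 23.7 at P5 and 37.6 at P8. Cacnb3 had the same 4 regions at every age within 16.1 kb, and with 24.8 regions per 100 kb it was the most densely open channel gene.

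Gamma subunit genes had few regions. On chromosome 11, Cacng1, Cacng4 and Cacng5 lie side by side. Cacng1, the gamma subunit gene of skeletal muscle at 107703218 to 107716476, had 0, 2 and 1 regions, and its gained region at 107719509 to 107720037 stood at 27.1 at P5 and 60.6 at P8. Cacng4 had 3, 0 and 1, with all 3 P2 regions lost, and Cacng5 2, 1 and 1. The highest lost region of Cacng4, at 107762922 to 107763420, stood at 56.5 at P2, and its gained one, at 107799133 to 107799631, at 42.8 at P8. On chromosome 7, Cacng7 (1, 1 and 1), Cacng8 (1, 1 and 0) and Cacng6 (4, 2 and 2) gained no region. The Cacng8 region at 3411151 to 3411652 was the highest lost region of all channel genes, at 77.9 in the P2 list and 54.3 in the P5 list. Cacng2 had 2, 2 and 1, and Cacng3 2, 3 and 2.

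On chromosome 9, Scn10a and Scn11a encode sodium channels of sensory neurons. Scn10a had 6, 3 and 1 regions, with 0 gained and 5 lost, and at equal list length its net gain was -2 in place of -5. Its remaining region at 119706633 to 119707133 had 79.4, 61.7 and 38.1. Scn11a had 1 region at each age, with 0 gained and 0 lost, at 61.9, 46.7 and 21.8.

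On chromosome 2, 5 further alpha genes were sparsely open. Scn2a had 2, 3 and 2 regions, Scn3a 2, 1 and 0, Scn1a 0, 1 and 1, Scn9a 1, 0 and 0, and Scn7a, whose product senses sodium in glia, 0, 1 and 1. The Scn7a region at 66737262 to 66737761 was gained, at 35.7 at P5 and 41.7 at P8. The Scn1a region lay 18355 bp outside the gene, and Scn3a had none inside. The Scn2a region at 65793504 to 65794077, 26057 bp outside the gene, had 46.3, 59.4 and 67.6. Scn8a, on chromosome 15 at 100869863 to 101045938, had 9, 6 and 5 regions, with 0 gained and 4 lost. Its lost regions stood at 9.09 to 20.1 at P2, and its 5 kept regions at 24.0 to 52.9 in the P8 list and 55.8 to 70.0 in the P2 list. Its net gain was -2 in place of -4 at equal list length. Scn4a, the skeletal muscle channel gene, had 4 at each age, and the region at 106329652 to 106330154 on chromosome 11 had 10.0, 38.4 and 49.3.

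Among the sodium channel beta genes, Scn2b had 3, 4 and 2 regions, and its region 1756 bp outside the gene at 45115585 to 45116120 on chromosome 9 was the next highest loss, at 74.2 at P2 and 56.3 at P5. Scn3b had 2, 2 and 1, with peaks at neighbouring places at its lower-coordinate end, at 40268969 to 40269467 in the P2 list and at 40269490 to 40269988 in the P5 list, that do not overlap and so count as a loss and a gain at P5 against P2. Scn4b had 0, 1 and 0.

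Genes of proteins that work with these channels had losses of the same order. The calcium channel partner list, which holds genes of the release site, calmodulins, ryanodine receptors and channel regulators, had 90, 62 and 52 regions at 23 of 25 genes. It lost 45 of 90 (50.0%, 39.9 to 60.1, against 31.7% of all assigned regions) and gained 7 of 52 (13.5%, 6.68 to 25.3, against 19%). A net loss was seen at 17 of the 23 genes and a net gain at 2, against 38.3% and 13.9% of all genes with regions. Cachd1, a relative of the alpha2delta genes, had 13, 9 and 3 regions and 10 of the 45 losses. Rimbp2, a scaffold linking channels to vesicles, had 6, 2 and 2, and Cabp2, a calcium sensor of hair cells, 2, 1 and 1. The sodium channel partner list had 79, 71 and 67 regions at all 11 genes, lost 32 (40.5%, 30.4 to 51.5) and gained 20 (29.9%, 20.2 to 41.7). The interval of its lost share holds the 31.7% of all assigned regions, while that of its gained share lies above their 19%. These intervals cover counting error only, and the difference was not tested. In it Ank3, the scaffold of the axon initial segment, had 19, 15 and 14, and Nfasc, an adhesion gene of nodes, 16, 12 and 11. Nedd4l, a ubiquitin ligase gene, gained 7 and lost 4, with 16, 19 and 19.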

How the data were processed

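Per the submitters' processing notes, reads were handled with Trimmomatic 0.33, Subread 1.4.6-p3 and MACS2 2.1.0 on build mm10. Read filters, pooling and any transposase shift, with their settings, were not given in the sources used here. Deposited are 3 peak lists, 1 per age, in the layout of the irreproducible discovery rate (IDR) method, with peaks of 499 bp. Each peak has the authors' ranking value, a −log10 p-value that equals the smaller of the values in 2 inputs, and a deposited IDR score (−log10 of the IDR), by which every listed peak has an IDR of at most 0.05. The animals behind each input were not stated. No counts are listed, so depth per sample is unknown, no interval covers it, and ranking values were used only within a list. Starts were taken as 0-based and are printed 1-based, an assumption that could move them by 1 bp.

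Merging, gene assignment and shares were computed with Python 3.11.15, pandas 2.3.3 and scipy 1.17.1, with positions of 21883 protein-coding genes from RefSeq GRCm38.p6. At equal distance a region went to the gene with the larger overlap. The steps recovered known answers on simulated lists. Shares carry Wilson 95% intervals. With 1 list per age no test between ages was possible. Genes described most closely, with gene positions and regions given singly or as a range of percentiles, were Cacna1d, the 8 genes with most regions and 4 genes at each extreme of net gain (ties going to the gene with more regions), and single regions were the highest gained, lost and distal ones. Regions of other genes and the Scn2a sequence were chosen after their values were seen. Of the 39 genes with a region, 2 are in all totals but are not reported by name here. Genes and gene lists were chosen with earlier results of these data known. Alternatives were IDR of at most 0.01, equal list length, the upper 50% of a list, changes that P5 supports, a centre rule of 150 bp, 20 kb, inside the gene, and the nearest gene end.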

Additional observations from a re-analysis of the deposited data

How the results depend on the processing

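The 6 shares of lost and gained regions stayed within the interval of the reported value with regions within 20 kb, with regions inside the gene only and with peak centres within 150 bp. At equal list length the lost share was 38.5% at P8 against P2, against 24.1% for all assigned regions, and 28.1% at P5 against P2, against 18.6%. With peaks of an IDR of at most 0.01, the gained share at P8 against P2 was 18.4%, against 16.4% for all. By nearest gene end the gained share at P8 against P5 was 11.0%. With only the upper 50% of a list counted, lost and gained shares were 12.1% and 5.41% at P8 against P2. All assigned regions had 7.53% and 4.25% there, and the interval of 5.97 to 22.9% for the loss reaches that background. At P5 against P2 the shares were 1.72% (1 of 58) and 1.96% (1 of 51). At P8 against P5 they were 3.92% (2 of 51) and 2.70% (1 of 37). These counts are small, and the shares over all assigned regions are not given for the comparisons with P5. With only changes that P5 supports, the P8 against P2 shares were 17.8% and 13.8%, which leaves out regions gone or not yet called at P5. Over all assigned regions such changes were 5924 of 48110 lost and 3424 of 40537 gained. The number of regions was 200 within 20 kb, 170 inside genes and 154 by nearest gene end. At equal list length the net gain of 17 genes moved up without reversing. Cacna1a and Cacna2d2 stood at -4 in place of -7, Scn10a at -2 in place of -5 and Scn8a at -2 in place of -4. Cacna1h and Cacna2d1 stood at -1 in place of -3, and Cacng4 at 0 in place of -2. Cacna1s, Cacna2d3 and Scn4a stood at 1 in place of 0. Net gain changed sign for Cacna1c at equal list length (1), and the cause was not tested. It also changed sign for Cacna1d by nearest gene end (-1). All Cacna1d regions of the main count lie nearer to an end of Chdh or Dcp1a, so that value comes from other regions. No paired analysis was possible because each age is 1 list and no test was made. Leaving out an animal was not possible for the same reason. The unknown depth of the lists limits every difference between ages.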
